A study of Mus musculus with 6 samples.

Results

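Interferon-stimulated genes are the genes that cells switch on when interferons bind their receptors. The 40 described here were chosen by symbol from the rows of a count table of 35727 mouse genes, and all 40 were found and passed the filter on low counts. They were measured in 6 RNA-seq libraries of 1 mouse undifferentiated pleomorphic sarcoma line, sorted by red fluorescence (RFP) out of tumours grown in mice. 3 libraries came from cells with a hairpin against Postn, which encodes the matrix protein periostin (shPostn), and 3 from cells with a scrambled hairpin (shSCR). Every library shares the same parent line, made from mesenchymal stem cells of female C57/Bl6 mice lacking p53, to which a retrovirus added Ccne1 (cyclin E1) and RFP. That parent had been taken through wild-type female recipients by subcutaneous transplantation before it received either hairpin virus. Sample titles call the shPostn samples a knockout and the shSCR samples wild type, while the protocol describes a hairpin. The labels give neither the age nor the genotype of the mice that bore the final tumours, and no further hairpin or clone. They also leave unsaid whether a group's libraries are separate tumours, so p-values measure only the spread between these samples, which may be technical. A difference between the 2 hairpin lines that has nothing to do with periostin cannot be told apart from one that has.

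As background, type I interferons act through receptors and Janus kinases on a complex of STAT proteins with IRF9, which binds the interferon-stimulated response element (ISRE) in the promoters of its targets. Type II interferon (interferon gamma) drives a different STAT dimer to the gamma-activated site (GAS) and induces IRF1, which in turn binds ISRE-like sequences. The products sense viral RNA, degrade or sequester it, attach the ubiquitin-like protein ISG15, or, as the guanylate-binding proteins and immunity-related GTPases do, attack the vacuoles of intracellular microbes. Tumour cells often express such genes at a low steady level without infection.

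Library totals lay between 19603269 and 19931734 counts in shPostn and between 19847860 and 20376554 in shSCR. Postn itself had 217, 471 and 639 CPM (counts scaled to equal library sizes after TMM normalisation) in the shPostn libraries, against 4097, 3602 and 3225 CPM in the shSCR libraries (log2 fold change −3.04, SE 0.41, edgeR adjusted p = 0.0125). Of 14 mesenchymal markers, all were detected, and their summed level was 41928 to 64748 CPM in shPostn and 50919.5 to 55686 CPM in shSCR, although the fibroblast antigen gene Thy1 was at most 1.55 CPM in shPostn and 3.89 CPM in shSCR. shPostn replicate 3 stood apart with macrophage RNA. The 16 macrophage markers summed to 165, 97.5 and 1130.3 CPM in shPostn replicates 1, 2 and 3, and to 112 to 269 CPM in shSCR; 15 of the 16 were highest in shPostn replicate 3 and no marker was at 0 throughout. The 10 pan-leukocyte markers summed to 215 to 437 CPM in shPostn and 193 to 243 CPM in shSCR, the 8 neutrophil markers to 3.18 to 7.79 and 4.26 to 10.6 CPM, the 12 T and NK cell markers to 4.20 to 6.64 and 3.81 to 4.77 CPM, the 9 B and dendritic cell markers to 2.22 to 5.89 and 1.32 to 2.76 CPM, and the 10 endothelial markers to 1.69 to 7.39 and 3.30 to 5.28 CPM. None of these lists held a called gene except G0s2, which fell, in the neutrophil list, and Twist1 on chromosome 12, which rose, in the mesenchymal list. Of all genes tested, edgeR called 10.1%. G0s2 was no longer called without shPostn replicate 1, shSCR replicate 1 or shSCR replicate 2 (edgeR adjusted p = 0.0533, 0.0648 and 0.0871). Twist1 was called, of the fits that leave out 1 library, only in that without shPostn replicate 3 (adjusted p 0.0509 to 0.105 in the others), and not with chromosome medians taken out (log2 fold change 0.15, adjusted p = 0.442).

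The promoters of the GTPase genes described further on are shown first, with those of Irf1, Isg15 and Bst2. Whether promoter sequence has a part in how these genes varied was not tested. Each line is the stretch from −130 to −1 before the RefSeq gene start (GRCm38.p6; with several starts, the one with most matches), read along the gene's strand, with matches to the ISRE core or the GAS core in capitals. The ISRE core is GAAA, any 2 bases and GAAA again, searched on both strands, so that it can also read TTTC, 2 bases and TTTC. The GAS core is TTCNNNGAA, which reads the same on both strands. Gbp2, Gbp3 and Gbp7 lie together on chromosome 3, Igtp and Irgm1 on chromosome 11. Irf1 is shown as a gene with a GAS core match and no ISRE core match, and Isg15 and Bst2 as ISRE genes that did not share the pattern of the GTPases.
Gbp2 (chr3:142620533-142620662, plus strand): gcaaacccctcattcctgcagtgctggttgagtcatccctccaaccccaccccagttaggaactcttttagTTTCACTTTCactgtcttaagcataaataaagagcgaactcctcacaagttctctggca
Gbp3 (chr3:142559914-142560043, plus strand): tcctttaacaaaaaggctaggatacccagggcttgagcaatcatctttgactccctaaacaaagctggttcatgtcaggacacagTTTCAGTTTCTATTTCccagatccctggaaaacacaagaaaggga
Gbp7 (chr3:142530206-142530335, plus strand): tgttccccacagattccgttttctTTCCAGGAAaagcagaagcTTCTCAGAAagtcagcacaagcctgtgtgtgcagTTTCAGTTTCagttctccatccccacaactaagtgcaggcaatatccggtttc
Igtp (chr11:58199426-58199555, plus strand): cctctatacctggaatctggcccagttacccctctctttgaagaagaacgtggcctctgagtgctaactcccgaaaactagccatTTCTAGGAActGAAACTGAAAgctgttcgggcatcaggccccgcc
Irgm1 (chr11:48871421-48871550, minus strand): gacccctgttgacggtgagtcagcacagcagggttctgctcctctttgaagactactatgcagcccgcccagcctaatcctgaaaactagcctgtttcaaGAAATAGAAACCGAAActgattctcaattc
Irf1 (chr11:53769884-53770013, plus strand): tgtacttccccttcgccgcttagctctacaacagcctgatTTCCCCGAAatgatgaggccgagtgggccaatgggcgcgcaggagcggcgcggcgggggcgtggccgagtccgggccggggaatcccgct
Isg15 (chr4:156200819-156200948, minus strand): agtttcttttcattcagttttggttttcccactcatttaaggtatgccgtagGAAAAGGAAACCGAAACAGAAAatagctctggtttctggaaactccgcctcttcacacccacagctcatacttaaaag
Bst2 (chr8:71537473-71537602, minus strand): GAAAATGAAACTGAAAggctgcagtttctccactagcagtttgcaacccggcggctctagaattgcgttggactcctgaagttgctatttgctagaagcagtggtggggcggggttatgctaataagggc
All 5 GTPase genes held an ISRE core within the searched window of 250 bases before to 50 after the start, at −59 to −50 in Gbp2 and −34 to −25 in Igtp. Gbp7 and Igtp also held a GAS core. In the Gbp3, Irgm1, Isg15 and Bst2 stretches adjacent ISRE cores overlap and print as a single run of capitals, and in Bst2 a GAS core at −136 to −128, which starts before the printed stretch, overlaps the first of them. Of the 30 members with a window in the RefSeq table, 16 held the ISRE core and 9 the GAS core, against 3.99% and 9.55% of all 27025 genes with a window. A match is only a string of letters and does not show that a factor binds there.

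All 40 members were expressed above the filter in these sarcoma libraries, and few differed between shPostn and shSCR by the test. A single member, Ifi27, passed the test (1 rose, 0 fell, 39 not called), where 10.1% of all 12819 genes tested were called by the same edgeR quasi-likelihood test at an adjusted p under 0.05 (4.61% rose and 5.53% fell). None of the members fell, while 2 of them, Usp18 and Bst2, were lower at an unadjusted p under 0.05 and were called lower by DESeq2. At an unadjusted p under 0.05 there were 10 members, 8 higher and 2 lower, against 27.0% of all genes. The shPostn and shSCR libraries did not overlap at 10 members, against 33.6% of all genes; 8 of the 10 were higher in shPostn (16.6% of all genes) and 2 lower (17.0%). The median log2 fold change (shPostn minus shSCR) was 0.067 over the members and 0.0089 over all genes, with 25 members above 0 and 15 below. The median size of the log2 fold change, whatever its sign, was 0.205 over the members and 0.166 over all genes. For 32 of the 40 members the 95% interval of the difference excluded a change of 2-fold or more in either direction, a share close to the 79.6% of all genes. The 8 members whose interval reached past 2-fold were Oas1a, Oas2, Rsad2, Mx1, Gbp2, Gbp3, Gbp7 and Igtp, so for these a 2-fold difference was not excluded.

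Other ways of fitting the same counts called 0 to 8 members. 1 member was called with relative log expression factors (10.3% of all genes), upper quartile factors (10.4%), no composition factors (10.2%), a minimum of 1 CPM in 3 libraries (10.9%) and limma-voom (10.2%). Ifi27 and Dtx3l were called with no count filter (6.62%). DESeq2 called 8 members (15.4%): Irf1, Gbp7, Irgm1, Igtp, Dtx3l and Ifi27 rose, and Usp18 and Bst2 fell. With the pan-leukocyte mean as a covariate Irf1, Dtx3l and Ifi27 rose and Bst2 fell (16.3%). Taking out chromosome medians left 0 members called (5.10%), as did a replicate block (5.73%). The count was also 0 without shPostn replicate 1 (7.23%), shPostn replicate 2 (4.89%), shSCR replicate 2 (2.36%) or shSCR replicate 3 (3.10%), and 1, Usp18, without shSCR replicate 1 (3.30%). Without shPostn replicate 3 there were 5 (17.1%), named further on. Over all these alternatives 6 to 14 members had an unadjusted p under 0.05, the 14 without shPostn replicate 3, against 18.8% to 31.8% of all genes.

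**Figure D1:**
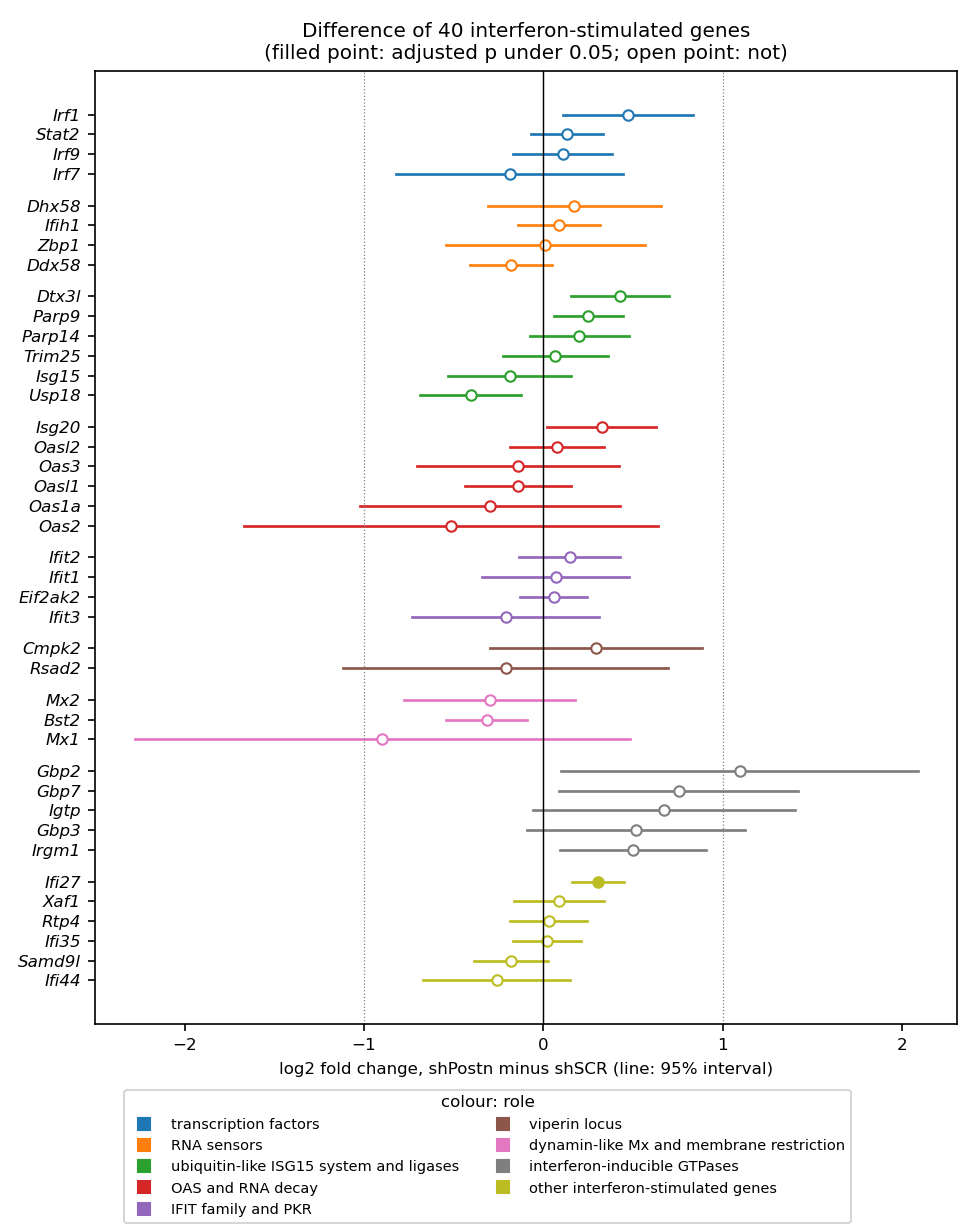
log2 fold change (shPostn minus shSCR, x axis) of each of the 40 members, grouped and coloured by role, with its 95% interval from edgeR's quasi-likelihood fit as a line and dotted lines at 2-fold. Only Ifi27 has a filled point (adjusted p under 0.05). The 5 GTPases all lie to the right, from 0.50 (Irgm1) to 1.09 (Gbp2), with wide intervals.

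The members spanned a wide range of levels. Genes were compared as CPM per kilobase of exon, with all annotated exons of a gene merged. Their order therefore depends on the annotated length, which can exceed that of the transcripts present. On this scale the median member stood at 12.3 in shPostn and 11.5 in shSCR, against 6.03 and 6.06 for all tested genes. In shSCR 31 of the 40 were above the median tested gene. Bst2, which encodes the membrane tether tetherin, had the highest level per kilobase in both lines (125 in shPostn and 156 in shSCR). In shSCR it was followed by Ifi27 (83.6), Isg15 (81.2), Gbp2 (55.4) and Irf1 (38.7). In shPostn the level per kilobase was 103 for Ifi27, 71.3 for Isg15, 118 for Gbp2 and 53.6 for Irf1, which put Gbp2 ahead of Ifi27. Mx1 and Oas3 were lowest, at 0.790 and 0.987 in shPostn and 1.47 and 1.09 in shSCR. In the shSCR libraries Isg15 overlapped both Ifi27 and Gbp2, and Gbp2 overlapped Irf1. In the shPostn libraries Gbp2 overlapped Bst2, Ifi27 and Isg15, and Isg15 overlapped Irf1. Compared within each library on this scale, Isg15 was above Gbp2, and Gbp2 above Irf1, in every shSCR library. Isg15 was above Irf1 in every shPostn library. The order of the other pairs changed between libraries and is not resolved. Without the division by length these orders differed. In CPM, Gbp2 (140, 88.7 and 190) was above Isg15 (54.0, 64.8 and 65.5) in shSCR replicates 1, 2 and 3. Irf1 (166 and 128 CPM) was above Gbp2 in shSCR replicates 1 and 2, and above Isg15 in every shPostn library.

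**Figure D2:**
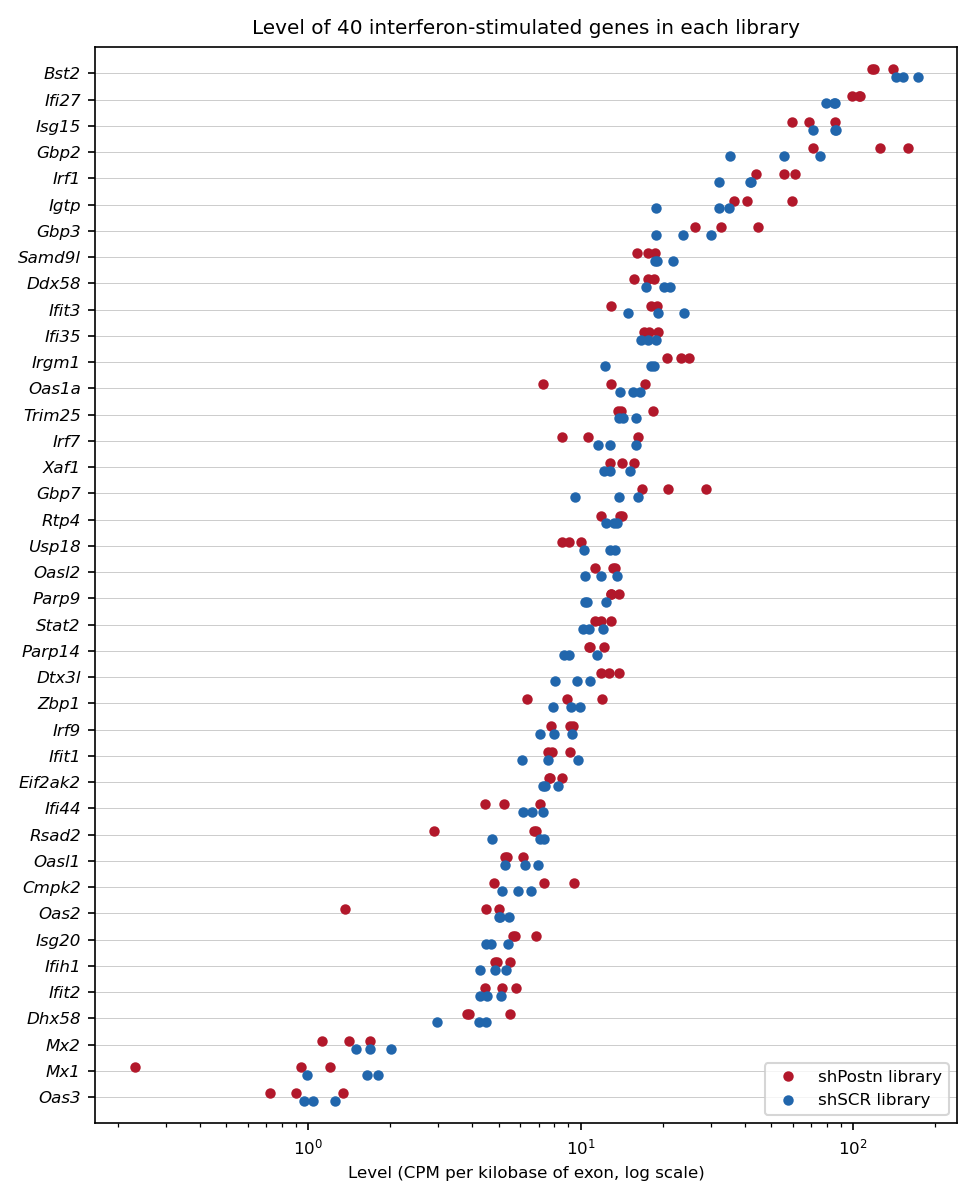
Level of each member in every library, as CPM per kilobase of exon on a log scale (x axis), shPostn libraries in red above shSCR libraries in blue, ordered by the shSCR mean. Bst2 is at the top and Oas3 at the bottom, and the red point far left of its group in Mx1, Oas2 and Rsad2 is shPostn replicate 1.

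Interferon genes themselves were close to undetected in these libraries. The cells were sorted by RFP, so interferon RNA of cells that the sort left out was not measured. Across 10 genes for type I, II and III interferons, 6 counts fell in the 3 shPostn libraries and 10 in the 3 shSCR libraries; Ifna1, Ifna2, Ifna4, Ifna5, Ifnk, Ifnl2 and Ifnl3 had none, where a count of 0 allows up to 0.150 to 0.154 CPM per shPostn library and 0.147 to 0.152 CPM per shSCR library, counting error only. Of 6 receptor genes 5 passed the filter on low counts, and the exception was Ifnlr1, a chain of the type III receptor, with 3 counts in all in shPostn and 1 in shSCR. Ifnar1, a chain of the type I receptor, averaged 79.5 ± 2.87 CPM in shPostn and 74.7 ± 4.01 CPM in shSCR (SD, n = 3 each). Ifngr1, a chain of the interferon gamma receptor, had 68.1, 89.2 and 85.0 CPM in shPostn replicates 1, 2 and 3, against 105, 104 and 119 CPM in shSCR replicates 1, 2 and 3. The groups of Ifngr1 did not overlap, and it narrowly missed the threshold (log2 fold change −0.44, SE 0.11, edgeR adjusted p = 0.0503). Of 35 genes of interferon production, reception and feedback, 24 were tested, 1 rose and 1 fell, against 10.1% of all genes called. 5 of the 24 had an unadjusted p under 0.05 (27.0% of all genes), and in DESeq2 1 rose and 2 fell (15.4% of all genes called). Traf3, an adaptor of sensor signalling on chromosome 12, averaged 96.9 ± 15.1 CPM in shPostn and 64.3 ± 1.23 CPM in shSCR (log2 fold change 0.59, SE 0.11, edgeR adjusted p = 0.0214). Ptpn2, a phosphatase on chromosome 18 that dampens Janus kinase signalling, averaged 30.2 ± 2.54 CPM in shPostn and 41.3 ± 1.68 CPM in shSCR (−0.45, SE 0.081, adjusted p = 0.0176). Both chromosomes differed as a whole between the lines, with median log2 fold changes of 0.39 over 374 genes (chromosome 12) and −0.45 over 281 genes (chromosome 18). With each chromosome's median taken out, Traf3 stood at 0.20 (adjusted p = 0.336) and Ptpn2 at −0.0035 (adjusted p = 0.987) on the log2 scale. Leaving out shSCR replicate 2 gave adjusted p = 0.103 for Traf3 and 0.0656 for Ptpn2; without shPostn replicate 2, shSCR replicate 1 or shSCR replicate 3 both also missed the threshold (0.0605 to 0.0812).

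Ifi27, an interferon-inducible gene whose human product is found at mitochondria (chromosome 12, 103434211 to 103440239), had 155, 155 and 145 CPM in shPostn replicates 1, 2 and 3, against 126, 117 and 125 CPM in shSCR replicates 1, 2 and 3. All shPostn libraries were above all shSCR libraries, with little spread within a group. It averaged 151 ± 5.77 CPM in shPostn and 123 ± 5.04 CPM in shSCR (SD, n = 3 each; log2 fold change 0.30, SE 0.061, edgeR adjusted p = 0.0253). The rise was smaller than that of its chromosome: 342 of the 374 chromosome 12 genes above 4 CPM were higher in shPostn, and 249 of them had a larger log2 fold change than Ifi27. With chromosome medians taken out the log2 fold change of Ifi27 was −0.084 (adjusted p = 0.466), and no member was called. Leaving out shPostn replicate 1 or 2 gave an adjusted p of 0.0579 or 0.0771, and leaving out shSCR replicate 1, 2 or 3 gave 0.0799, 0.111 or 0.0921, with log2 fold changes of 0.27 to 0.33.

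**Figure D3:**
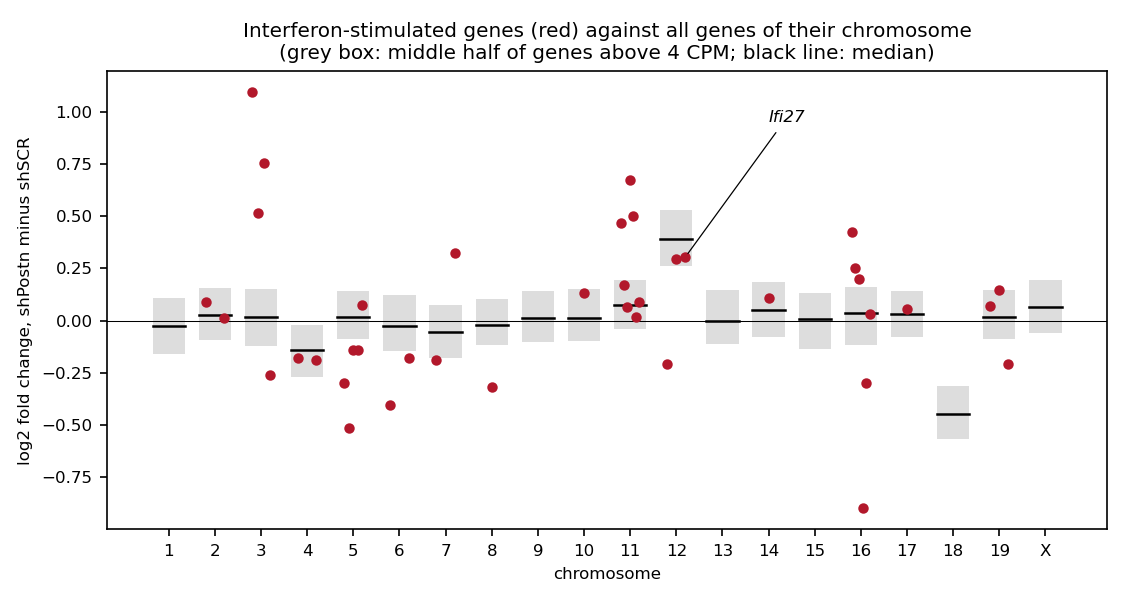
log2 fold change (shPostn minus shSCR, y axis) of the members (red points) by chromosome, over a grey box for the middle 50% and a black line for the median of all genes above 4 CPM on that chromosome. The chromosome 12 median is 0.39 and Ifi27, at 0.30, lies below it.

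The other 2 members on chromosome 12 are neighbours that are transcribed away from each other, Rsad2 (26442746 to 26456452, minus strand), which encodes the radical SAM enzyme viperin, and Cmpk2 (26469204 to 26479837, plus strand), a nucleotide kinase that supplies it. Rsad2 had 12.5, 29.3 and 29.8 CPM in shPostn replicates 1 to 3, against 20.5, 31.7 and 30.7 CPM in shSCR replicates 1 to 3. The groups overlapped, and replicate 1 was the lowest library of each. The log2 fold change of −0.21 (SE 0.37, edgeR adjusted p = 0.761) became 0.097 without shPostn replicate 1 and −0.60 with chromosome medians taken out, so it has no settled direction. Cmpk2 had a log2 fold change of 0.29 (SE 0.24, adjusted p = 0.493), and of −0.096 with chromosome medians taken out.

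The GTPases had the largest positive differences of the set, and none of the 5 passed the test. 3 of them had an unadjusted p under 0.05 in edgeR, against 27.0% of all genes, and DESeq2, which called 15.4% of all genes, called Gbp7, Irgm1 and Igtp. Gbp2, a guanylate-binding protein gene (chromosome 3, 142620602 to 142638008), had 316, 398 and 179 CPM in shPostn replicates 1, 2 and 3, against 140.1, 88.7 and 189.6 CPM in shSCR replicates 1, 2 and 3. Replicate 2 was the highest shPostn library and also the lowest shSCR library, and shPostn replicate 3 lay within the shSCR range. It averaged 298 ± 111 CPM in shPostn and 139 ± 50.5 CPM in shSCR (SD, n = 3 each), and the difference was 1.09 on the log2 scale (95% interval 0.10 to 2.09, edgeR adjusted p = 0.152).

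Gbp7, a further guanylate-binding protein gene on chromosome 3 (142530342 to 142550149), had 117, 162 and 94.2 CPM in shPostn replicates 1, 2 and 3, against 77.3, 53.4 and 90.7 CPM in shSCR replicates 1, 2 and 3. The groups did not overlap, but shPostn replicate 3 and shSCR replicate 3 were close. The log2 fold change was 0.75 (interval 0.088 to 1.42, adjusted p = 0.142). Gbp3 had a log2 fold change of 0.52 (interval −0.090 to 1.12, adjusted p = 0.250), with overlapping groups.

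Igtp and Irgm1 are immunity-related GTPase genes; their products act on the vacuoles of intracellular microbes, Irgm1 as a regulator of the others. Igtp (chromosome 11, 58199556 to 58207591) had 82.2, 121 and 73.8 CPM in shPostn replicates 1, 2 and 3, against 64.9, 38.1 and 70.8 CPM in shSCR replicates 1, 2 and 3. Irgm1 (chromosome 11, 48861968 to 48871683) had 136, 145 and 120.5 CPM in shPostn, against 105, 71.2 and 108 CPM in shSCR, in the same order. Neither gene's groups overlapped. The log2 fold changes were 0.67 (interval −0.058 to 1.40, edgeR adjusted p = 0.218) for Igtp and 0.50 (interval 0.094 to 0.90, adjusted p = 0.117) for Irgm1. The annotated body of Igtp overlaps that of Irgm2 by 7974 bases on the same strand, and Igtp shares 15.9% and Gbp7 14.7% of their 31-base words with other genes, so reads of these genes may be split. Across all 5 GTPases, shPostn replicate 2 was the highest library 5 times and shSCR replicate 2 the lowest library 5 times. How often this held over all genes tested was not counted. Without shSCR replicate 2 the log2 fold changes were 0.85 for Gbp2, 0.57 for Gbp7, 0.44 for Igtp, 0.36 for Gbp3 and 0.33 for Irgm1, with adjusted p from 0.150 to 0.516. Without shPostn replicate 2 they were 0.83 for Gbp2, 0.52 for Gbp7, 0.43 for Igtp, 0.29 for Gbp3 and 0.44 for Irgm1, with adjusted p from 0.249 to 0.465. The summed macrophage markers were 165, 97.5 and 1130.3 CPM in shPostn replicates 1, 2 and 3, against 269, 206 and 112 CPM in shSCR replicates 1, 2 and 3; their part in the GTPase levels was not tested.

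**Figure D4:**
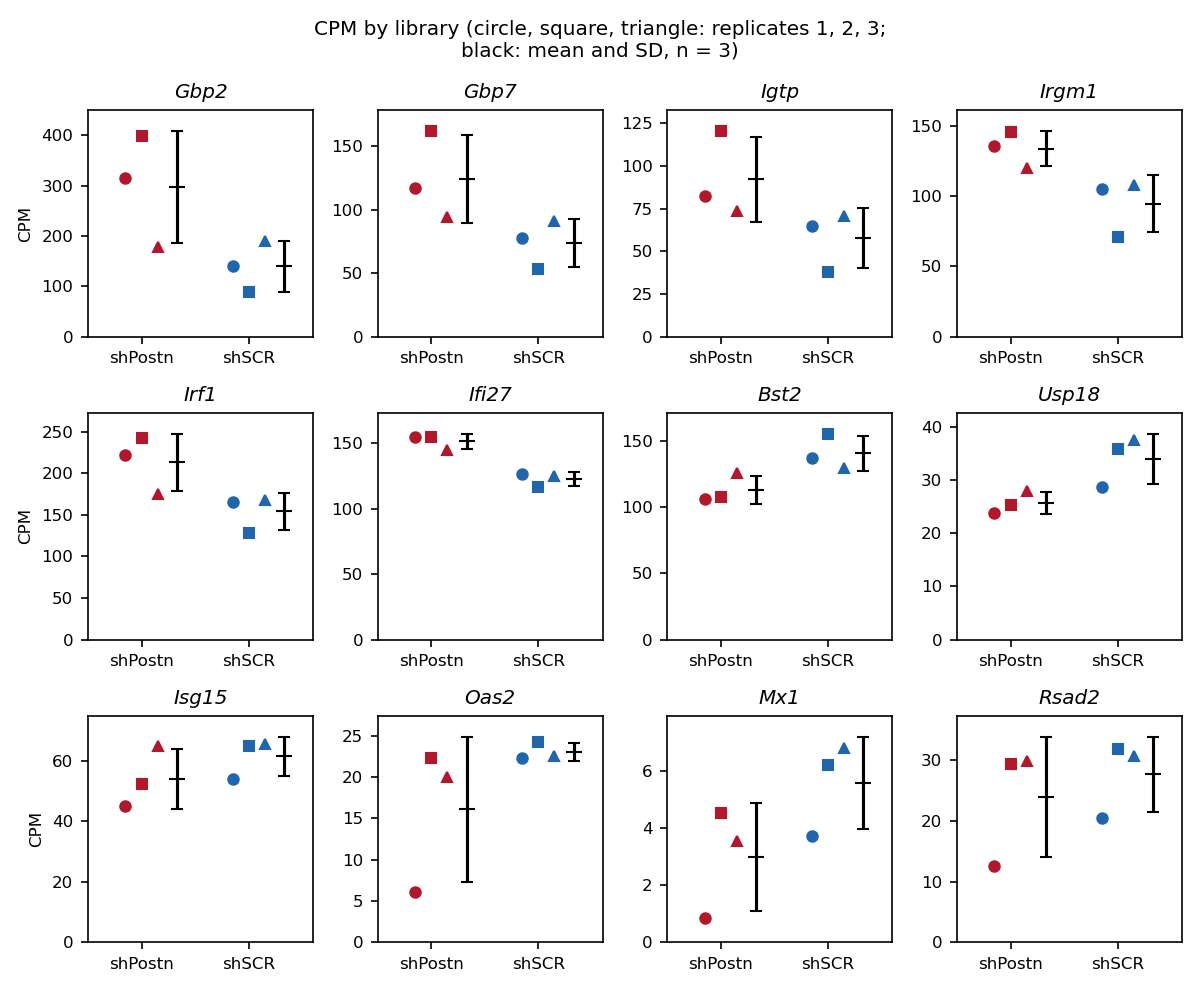
CPM (y axis, from 0) of 12 members in each shPostn (red, left) and shSCR (blue, right) library, with the group mean and SD in black (n = 3 each). In Gbp2, Gbp7, Igtp and Irgm1 the square for replicate 2 is highest in shPostn and lowest in shSCR, and in Oas2, Mx1 and Rsad2 the circle for shPostn replicate 1 is lowest.

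Among the transcription factors, Irf1, the factor most directly induced by interferon gamma (chromosome 11, 53770014 to 53778374), had 222, 242 and 175 CPM in shPostn replicates 1, 2 and 3, against 166, 128 and 168 CPM in shSCR replicates 1, 2 and 3. It ordered the libraries as Igtp, Gbp7 and Irgm1 did, and its groups did not overlap. The log2 fold change of 0.47 (SE 0.15, edgeR adjusted p = 0.103) missed the threshold. It passed without shPostn replicate 3, the macrophage-rich library (0.59, adjusted p = 0.0192). It also passed with the pan-leukocyte mean as a covariate (0.53, adjusted p = 0.0195) and in DESeq2 (0.47, adjusted p = 0.015). Those 3 fits called 17.1%, 16.3% and 15.4% of all genes. Irf1 missed the threshold in the rest of the 16 alternatives. Without shSCR replicate 2 its log2 fold change was 0.35 (edgeR adjusted p = 0.267).

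The partners of the type I response complex differed less. Stat2 had 67.0, 76.7 and 70.5 CPM in shPostn, against 63.3, 60.4 and 71.7 CPM in shSCR (log2 fold change 0.13, interval −0.069 to 0.33, adjusted p = 0.376). Irf9, its DNA-binding partner, had 41.9, 50.4 and 49.1 CPM in shPostn, against 43.0, 38.2 and 50.1 CPM in shSCR (0.11, interval −0.17 to 0.38, adjusted p = 0.607). The groups of both genes overlapped. Irf7, which amplifies type I interferon production, had 32.2, 40.2 and 61.3 CPM in shPostn, against 43.7, 60.4 and 48.4 CPM in shSCR. Its lowest and its highest library were both shPostn, and the difference was −0.19 (interval −0.82 to 0.44, adjusted p = 0.688) on the log2 scale. It was −0.0018 without shPostn replicate 1 and −0.49 without shPostn replicate 3.

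In the ISG15 system the members pointed in different directions. Isg15, the ubiquitin-like modifier, had 45.0, 52.1 and 64.6 CPM in shPostn, against 54.0, 64.8 and 65.5 CPM in shSCR. The groups overlapped (log2 fold change −0.19, edgeR adjusted p = 0.458). The log2 fold change was −0.073 without shPostn replicate 1 and −0.34 without shPostn replicate 3. Isg15 lies on chromosome 4, whose median log2 fold change was −0.14 over 665 genes. With chromosome medians taken out Isg15 stood at −0.045. Usp18, the protease that removes ISG15 and also restrains type I receptor signalling (chromosome 6, 121245906 to 121270917), had 23.8, 25.2 and 27.9 CPM in shPostn, against 28.6, 35.8 and 37.4 CPM in shSCR. Its groups did not overlap and its log2 fold change was −0.41 (SE 0.12, edgeR adjusted p = 0.0759). The adjusted p was 0.0351 without shPostn replicate 3, 0.0495 without shSCR replicate 1 and 0.0439 in DESeq2. Usp18 was called in only those 3 of the 16 alternatives. Without shSCR replicate 2 it stood at −0.37 (edgeR adjusted p = 0.237). Trim25, a ligase that activates the RNA sensor RIG-I, had a log2 fold change of 0.066 (adjusted p = 0.779).

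Dtx3l, Parp9 and Parp14 lie next to each other on chromosome 16 and act in ADP-ribosylation, Dtx3l as a ubiquitin ligase bound to Parp9. Dtx3l had 67.7, 79.2 and 72.8 CPM in shPostn, against 55.6, 46.0 and 61.9 CPM in shSCR, and the groups did not overlap (log2 fold change 0.43, SE 0.12, edgeR adjusted p = 0.0615). It was called in DESeq2 (adjusted p = 0.0124), with the leukocyte covariate (0.0473) and with no count filter. Dtx3l was called in only those 3 of the 16 alternatives, and its edgeR adjusted p went up to 0.160 in the others. Parp9 (0.25, adjusted p = 0.101) also had groups that did not overlap, while those of Parp14 did (0.20, adjusted p = 0.323). The annotated bodies of Dtx3l and Parp9 overlap by 682 bases on opposite strands; the library kit marks strand, but how strand was used in counting is not given in the sources used here.

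The cytosolic RNA sensors stayed close in level in the 2 lines. Ddx58, which encodes RIG-I, had 111, 131 and 124 CPM in shPostn, against 122, 142 and 150.4 CPM in shSCR (log2 fold change −0.18, interval −0.41 to 0.049, adjusted p = 0.289). Ddx58 lies on chromosome 4, as Isg15 does, and with chromosome medians taken out its log2 fold change was −0.038. The groups overlapped at every sensor. Ifih1, which encodes MDA5, had a difference of 0.087 (interval −0.14 to 0.31) and its relative Dhx58, which encodes LGP2, one of 0.17 (interval −0.31 to 0.66). Zbp1, a sensor of left-handed nucleic acids that can start necroptosis, had one of 0.010 (interval −0.55 to 0.57), and its lowest and its highest library were both shPostn.

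Oligoadenylate synthetases make the messenger that activates RNase L, and in 3 of them, Oas1a, Oas2 and Oas3, shPostn replicate 1 was the lowest library. Oas2 (chromosome 5, 120730333 to 120749853) had 6.05, 22.3 and 19.9 CPM in shPostn replicates 1, 2 and 3, against 22.3, 24.2 and 22.5 CPM in shSCR. The groups overlapped, and shPostn replicate 1 stood far below the other 5 libraries. The log2 fold change was −0.52 (interval −1.67 to 0.64, edgeR adjusted p = 0.532) and −0.12 without shPostn replicate 1. Oas1a had 13.7, 24.4 and 32.4 CPM in shPostn, against 26.4, 29.3 and 31.2 CPM in shSCR (−0.30, adjusted p = 0.570), and −0.028 without shPostn replicate 1. Its value is uncertain in another way, since 68.8% of its 31-base words also occur in transcripts of other genes, nearly all in the copy Oas1g. Oas3 had a log2 fold change of −0.14, and of 0.038 without shPostn replicate 1. In the synthetase-like genes Oasl1 and Oasl2 shSCR replicate 1 was the lowest library, and their log2 fold changes were −0.14 and 0.075, or −0.24 and −0.016 without it. Isg20, an exonuclease of single-stranded RNA, had groups that did not overlap and a log2 fold change of 0.32 (interval 0.020 to 0.63, adjusted p = 0.161).

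The IFIT proteins bind viral RNA ends, and 3 of their genes, all on chromosome 19, are members. Ifit3 had 22.6, 31.6 and 33.4 CPM in shPostn, against 26.0, 33.6 and 41.8 CPM in shSCR, with overlapping groups (log2 fold change −0.21, interval −0.73 to 0.31, adjusted p = 0.583). Without shPostn replicate 1 the log2 fold change was −0.055, without shSCR replicate 3 −0.028, and without shSCR replicate 1 −0.37. It shares 61.8% of its 31-base words with Ifit3b, so reads may be split between the copies. Ifit1 and Ifit2 differed by 0.067 and 0.15 on the log2 scale (adjusted p = 0.837 and 0.480). Eif2ak2, which encodes the RNA-activated kinase PKR, differed by 0.057 (interval −0.13 to 0.24, adjusted p = 0.691).

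The membrane tether gene Bst2 and the Mx genes Mx1 and Mx2 were all lower on average in shPostn, and none was called. In edgeR 1 of the 3 had an unadjusted p under 0.05. Bst2 (chromosome 8, 71534255 to 71537456) had 106, 108 and 126 CPM in shPostn, against 138, 156 and 130.1 CPM in shSCR, without overlap. Its log2 fold change was −0.32 (SE 0.096, edgeR adjusted p = 0.0839). Without shPostn replicate 3 it was −0.40 (adjusted p = 0.0178), and DESeq2 and the leukocyte covariate called it as well (adjusted p = 0.0328 and 0.0225). Bst2 was called in only those 3 of the 16 alternatives. Without shSCR replicate 2 its log2 fold change was −0.24 (edgeR adjusted p = 0.256). Mx1, a dynamin-like GTPase whose allele is defective in many laboratory mouse strains, had 0.872, 4.55 and 3.55 CPM in shPostn, against 3.74, 6.21 and 6.80 CPM in shSCR, from 17 to 90 counts per shPostn library and 76 to 134 per shSCR library. shPostn replicate 1 was again the lowest library, and the difference was −0.90 (interval −2.28 to 0.48, adjusted p = 0.375), or −0.46 without it. Mx2 differed by −0.30 (adjusted p = 0.397).

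Of the remaining members, the receptor chaperone gene Rtp4, Ifi35, and Xaf1, whose product promotes apoptosis, had log2 fold changes of 0.029, 0.019 and 0.087, with intervals inside −0.18 to 0.34. Samd9l, whose product restrains translation, differed by −0.18 (interval −0.39 to 0.023, adjusted p = 0.235). Ifi44 had 27.2, 32.0 and 43.3 CPM in shPostn, against 37.6, 40.6 and 44.7 CPM in shSCR (−0.26, adjusted p = 0.388), and it was called without shPostn replicate 3 (−0.47, adjusted p = 0.0215).

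Library by library, the highest and the lowest library differed from member to member. Members were not sorted into patterns by a computation. The counts below were not made over all genes tested, so whether they are particular to the members is not known. shPostn replicate 1 was the lowest library at 18 of the 40 members and the highest at 2, while shPostn replicate 2 was highest at 14 and lowest at 0. shSCR replicate 2 was lowest at 12 members, the 5 GTPases and Irf1 among them, and highest at 4. shSCR replicate 3 was highest at 10 members and lowest at 1. shPostn replicate 3, with the high macrophage markers, was highest at 10 members and lowest at 0. Without that library 5 members were called, of which Irf1 and Ifi27 rose and Ifi44, Usp18 and Bst2 fell, where 17.1% of all genes were called. The part that macrophage RNA has in the levels of shPostn replicate 3 was not tested, and in such bulk libraries fewer cells of a type cannot be told apart from less RNA per cell.

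**Figure D5:**
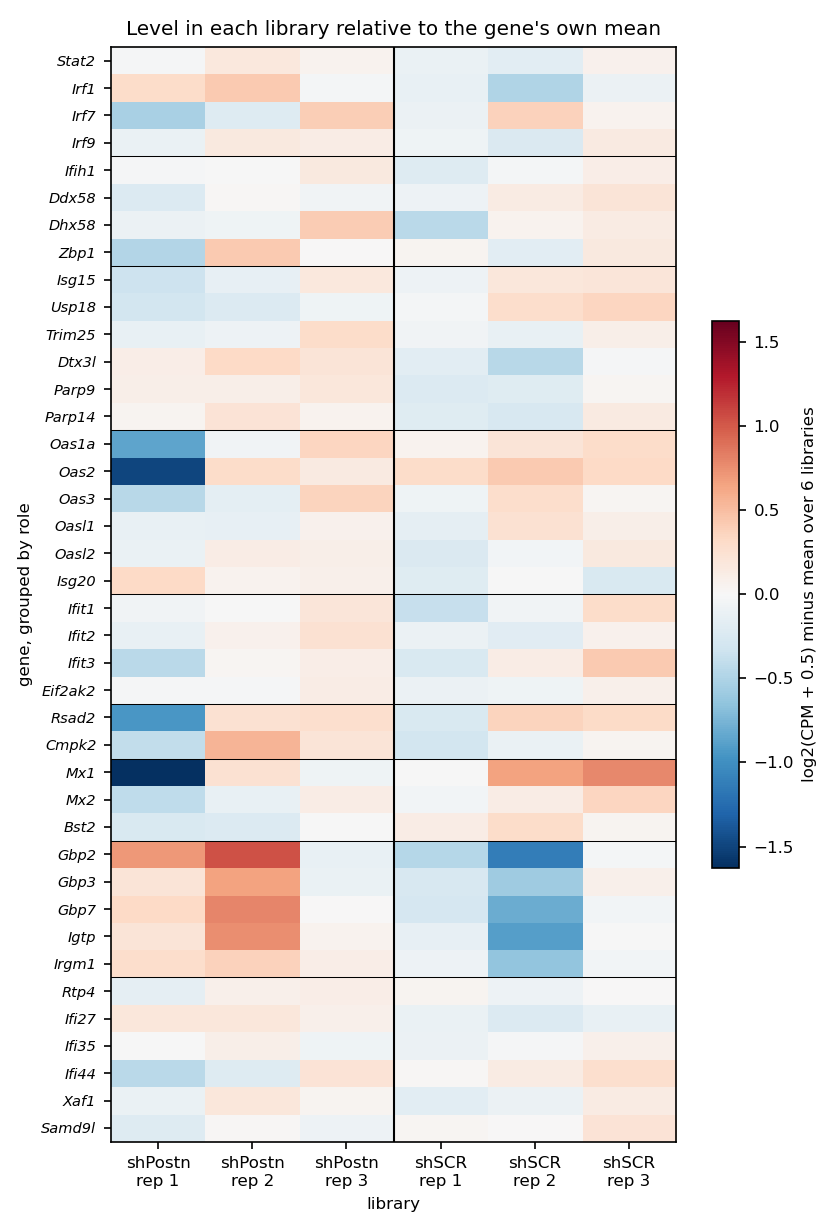
Each member's log2(CPM + 0.5) in each library (columns, shPostn left of shSCR) minus its mean over the 6 libraries, in rows grouped by role, red above and blue below the mean. The GTPase block is red in shPostn replicates 1 and 2 and blue in shSCR replicate 2, while Oas1a, Oas2, Rsad2 and Mx1 are blue in shPostn replicate 1.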

How the data were processed

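RNA was extracted with TRIzol and made into strand-specific mRNA libraries by BGI for DNBSEQ, per the labels' protocols. The deposited values are estimated counts for each Ensembl gene, which the authors obtained from Salmon with mm10, per the submitters' processing notes. What version, annotation and strand setting that step used is not given in the sources used here. Rounding to whole numbers changed 0 values, and 16265 genes had 0 counts throughout. Symbols, positions and exon lengths came from GENCODE M21 (GRCm38; 35493 IDs matched), and promoters from RefSeq GRCm38.p6.

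Counts were analysed with edgeR 4.0.16 in R 4.3.3: filterByExpr (minimum count 10), TMM scaling and a robust quasi-likelihood F-test of shPostn against shSCR, without covariates, with Benjamini-Hochberg adjustment over 12819 genes and a threshold of 0.05. The SE is the log2 fold change over the square root of F, and 95% intervals use the fit's t quantile. Tested on simulated data for this comparison (12819 genes, 200 of them changed), it found 67% of the 2-fold and 88% of the 4-fold changes and made 170 calls, 15 of them false; with nothing changed it made 1. Alternatives used other scaling factors, other count filters, DESeq2 1.42.0, limma-voom 3.58.1, a replicate block, a leukocyte covariate, chromosome medians, or 1 library fewer. Reads carry no molecular identifiers. Figures used Python 3.11.15 and matplotlib 3.10.9.

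The members, lists and tests were chosen with earlier results of these data known. Values per library were planned for called members, 4 transcription factors, the most abundant member of each role and the 3 largest differences each way; Irgm1, Dtx3l and Ifi44 were added after their values were seen. No batch is labelled, so none was modelled. Replicates of a group differed by more than sampling noise.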

Additional observations from a re-analysis of the deposited data

How the results depend on the processing

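The members called numbered 1, as they did with upper quartile, relative log expression or no factors, with 1 CPM in 3 libraries and with limma-voom. They numbered 2 with no count filter, 8 with DESeq2 (1973 genes called in all), 4 with the pan-leukocyte covariate (2094 in all), 0 with chromosome medians taken out (654 in all) and, over the settings that leave out 1 library, 0 to 5 (307 to 2220 in all, against 1300). With a replicate block 0 members and 735 genes in all were called. The labels do not say whether the replicate numbers pair the samples. The deviations of same-numbered libraries correlated at −0.0045, −0.083 and −0.48, and shPostn replicates 1, 2 and 3 correlated best with shSCR replicates 3, 3 and 1. Each deviation is from a group mean of 3 libraries, so these correlations depend on each other. They cannot decide whether the samples are paired. The log2 fold change of Ifi27 was −0.084 with chromosome medians taken out, and that of Rsad2 was 0.097 without shPostn replicate 1, the upper end of −0.40 to 0.097 with 1 library left out. The members' median log2 fold change was 0.067, and it stood at −0.0081 with chromosome medians taken out, at 0.016 to 0.15 with 1 library left out and at 0.048 to 0.070 in the other fits. 31 members were called under none of the 16 alternatives. The ISRE core with its flanking CT was found in 9 members in place of 16, and in 0.303% of all genes. With 3 libraries a group, simulated 2-fold changes were found in 67% of cases, and smaller ones were not simulated.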

Other observations

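Of the interferon-induced GTPase genes outside the 40 members, 11 (Ifi47, Iigp1, Irgm2, 6 further Gbp genes, Tgtp1 and Tgtp2) were picked out of a wider list after their values were seen, so their values describe that choice and support nothing. Their log2 fold changes lay between 0.18 and 1.03, and shPostn replicate 2 was the highest library at 11 of them and shSCR replicate 2 the lowest at 10. Ifi47 averaged 99.4 ± 17.7 CPM in shPostn and 63.8 ± 11.3 CPM in shSCR (SD, n = 3 each; edgeR adjusted p = 0.0749), and Tgtp1 77.5 ± 24.8 and 38.1 ± 18.6 CPM (adjusted p = 0.239). The interferon-induced chemokine gene Cxcl9 averaged 46.7 ± 29.6 CPM in shPostn and 47.0 ± 15.7 CPM in shSCR, and Cxcl10 166 ± 56.6 and 131 ± 28.7 CPM, neither called (adjusted p = 0.994 and 0.524).

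Over the whole wider list, 56 of 60 genes were tested and 2 fell, Ifi205, a DNA-binding HIN protein gene (log2 fold change −0.48, edgeR adjusted p = 0.0306), and Tor3a (−0.31, adjusted p = 0.0261). None rose. At an unadjusted p under 0.05 there were 11, 7 higher and 4 lower, against 27.0% of all genes, and DESeq2 called 7 higher and 2 lower, against 15.4% of all genes. Both calls were lost without shSCR replicate 2 (adjusted p = 0.105 and 0.0986), shSCR replicate 3 (0.0867 and 0.102) or shPostn replicates 1 or 2 (0.0535 to 0.0801), and that of Tor3a also without shSCR replicate 1 (0.0605). With chromosome medians taken out they were at 0.0536 and 0.0505. Of 13 genes of MHC class I presentation, 12 were not called, where edgeR called 10.1% of all genes. The exception was Tapbp, the tapasin gene that helps load peptides, which rose. It averaged 269 ± 31.1 CPM in shPostn and 173 ± 18.4 CPM in shSCR (log2 fold change 0.64, edgeR adjusted p = 0.0162), and missed the threshold without shPostn replicate 2 (0.0524), shSCR replicate 1 (0.0697) or shSCR replicate 2 (0.0835).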
